A study of Homo sapiens with 20 samples.

Results

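The genes IKZF1, CSF1R, SPI1, PTPRC, CD34, TAL1, GATA1 and CD79A, which define blood cell lineages, were read as loci outside the lineage of the cells under study. They were chosen by name, as 8 of the 19974 RefSeq protein-coding genes on chromosomes 1 to 22 and X, and all peaks that overlapped the gene body or the 50 kb on each side were taken as peaks of the gene's window. The cells were HCT116, an established human colorectal carcinoma line, either wild type (WT) or with a knockout (KO) of MLL4, the histone H3 lysine 4 methyltransferase encoded by KMT2D. The labels name no treatment in either genotype and do not say whether the KO is 1 clone. Chromatin immunoprecipitation with sequencing gave 18 peak lists, with H3K27ac, H3K4me3 and p53 read in 2 libraries of each genotype and the other targets (MLL4, MLL1, H3K4me1) in 1. Values for the latter have no replicate check, and whether replicates are separate cultures is not in the labels, so p-values measure a spread that may be technical.

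The genes are switched on in turn as blood cells form. IKZF1 (Ikaros), SPI1 (PU.1), TAL1 and GATA1 are transcription factors that set the lymphoid, myeloid, early blood and red cell programmes, and CSF1R, PTPRC (CD45), CD34 and CD79A are surface proteins of macrophages, of leukocytes, of progenitors and of B cells. In chromatin, H3K4me3 marks the starts of active genes, H3K27ac marks active promoters and enhancers, and H3K4me1, which MLL4 places, marks enhancers and the flanks of promoters. No RNA was measured, so that the genes are silent in these cells is background and not a value of these data.

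The windows spanned 104 kb (CD79A) to 219 kb (PTPRC), 1162 kb in all, and they also held 18 other protein-coding genes. Only the windows of PTPRC and CD34 held none. Peaks of these neighbours are therefore told apart below from peaks of the blood genes themselves. A peak was put at a gene's start when it lay within 1 kb of a start in the RefSeq promoter table (GRCh38.p14), which holds 7 of the 8 genes. SPI1 is not in that table, and both ends of its gene body were used. Strand was known for 15812 of the 19974 genes in this way and both ends were used for the others, which can move the shares given for all genes.

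Sequences of 5 starts are shown first because the p53 results below are set beside their CpG numbers. Each line is the 250 bases before an annotated start, 5′ to 3′ on the gene's strand, from RefSeq (GRCh38.p14), with every CpG in capitals. They lie at chr7:50304466-50304715 (IKZF1, plus strand, the first of 3 annotated starts), chr1:47232336-47232585 (TAL1, minus strand, the upstream one of 2), chr1:207911126-207911375 (CD34, minus strand), chrX:48786340-48786589 (GATA1, plus strand) and chr1:198638790-198639039 (PTPRC, plus strand).
IKZF1: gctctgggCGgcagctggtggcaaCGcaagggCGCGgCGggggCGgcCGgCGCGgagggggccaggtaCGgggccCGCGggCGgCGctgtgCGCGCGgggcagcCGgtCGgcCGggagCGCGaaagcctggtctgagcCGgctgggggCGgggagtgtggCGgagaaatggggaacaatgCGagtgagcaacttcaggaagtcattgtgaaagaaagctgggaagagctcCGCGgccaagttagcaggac
TAL1: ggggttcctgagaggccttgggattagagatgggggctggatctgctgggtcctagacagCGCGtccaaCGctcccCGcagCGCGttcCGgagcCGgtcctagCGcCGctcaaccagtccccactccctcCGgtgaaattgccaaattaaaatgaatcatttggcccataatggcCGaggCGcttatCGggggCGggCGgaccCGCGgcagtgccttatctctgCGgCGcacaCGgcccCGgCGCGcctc
CD34: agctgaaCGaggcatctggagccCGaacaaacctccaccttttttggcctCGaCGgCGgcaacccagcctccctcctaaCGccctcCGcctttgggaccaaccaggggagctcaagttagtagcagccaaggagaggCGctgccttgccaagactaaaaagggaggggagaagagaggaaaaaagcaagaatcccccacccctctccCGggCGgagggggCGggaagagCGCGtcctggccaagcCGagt
GATA1: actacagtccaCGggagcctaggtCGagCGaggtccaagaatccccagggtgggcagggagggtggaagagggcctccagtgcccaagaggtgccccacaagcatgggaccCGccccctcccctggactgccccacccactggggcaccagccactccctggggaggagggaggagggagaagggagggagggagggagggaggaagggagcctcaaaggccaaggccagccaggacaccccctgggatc
PTPRC: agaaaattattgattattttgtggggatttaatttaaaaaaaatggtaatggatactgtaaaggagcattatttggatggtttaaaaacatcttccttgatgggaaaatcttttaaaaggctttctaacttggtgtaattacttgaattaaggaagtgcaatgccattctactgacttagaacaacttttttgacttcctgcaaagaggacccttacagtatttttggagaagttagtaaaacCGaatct
The IKZF1 stretch holds 28 CpGs, that of TAL1 24 and that of CD34 14. The GATA1 and PTPRC stretches hold 4 and 1, and the median over all 35114 promoter entries was 11. The second annotated start of TAL1 has 14, the upstream start of CSF1R has 6 and that of CD79A has 4. The p53 comparison below uses 22130 starts of protein-coding genes, which hold more CpGs. Of these, 5611 had 0 to 5 CpGs, 5505 had 6 to 16, 5496 had 17 to 25 and 5518 had 26 or more. The 14 CpGs of CD34 and of the second TAL1 start, above the median of all entries, fell in the range of 6 to 16 there.

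H3K4me3 was absent from the starts of the blood genes. A peak lay within 1 kb of a start, or for SPI1 a gene end, in every WT library for 1 of the 8 genes, against 60.8% of all protein-coding genes, and in every KO library for 1 of 8, against 61.3%. The exception was SPI1, and there the peak (chromosome 11, 47354729 to 47355870) sat at the lower-numbered end of the gene body, where transcription of this minus-strand gene ends. Its fold enrichment over local background, the authors' own value per peak, was 40.9 and 5.53 in the WT libraries and 26.8 and 49.2 in the KO libraries. WT replicate 2 stood low, and the ranges of the genotypes overlapped. The start end of SPI1 carried no H3K4me3 peak, so no blood gene had one at its transcription start in any of the 4 libraries.

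Lists of other genes gave a scale for this. Of 18 genes of colon epithelium, 13 (72.2%) had H3K4me3 at a start in every WT library, among them EPCAM, CDH1, CDX2 and KLF5. The label of the cells as a colon line thus held for most but not all of these markers, since CDX1, HNF4A, VIL1, CDH17 and KRT20 had none. Of 42 further blood genes, 16 (38.1%) had it, among them RUNX1, GATA2, MYB, TCF7 and GFI1B. RUNX1, a transcription factor of blood stem cells, had folds of 111 and 153 in WT and 107 and 214 in KO. GFI1B, a red cell factor, had 199 and 223 in WT and 209 and 156 in KO. An unmarked start was thus found at the 8 genes but not at all blood genes. Of 8 genes of muscle, liver and neurons, 2 (PAX6 and SYT1) had H3K4me3 at a start.

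Most of the strong H3K4me3 in the windows belonged to neighbours. In the window of IKZF1 the sole H3K4me3 region lay over the start of FIGNL1, an AAA ATPase gene, with folds of 129 and 141 in WT and 115 and 100.2 in KO. Both genotypes were high there and KO lay just below WT. Next to CD79A, the ribosomal protein gene RPS19 had 225 and 249.4 in WT and 123 and 209 in KO. ARHGEF1, on the other side, had 130 and 166 in WT and 145 and 162 in KO. Strong peaks also covered the starts of SLC39A13 and PSMC3 near SPI1, of HDAC6 near GATA1 and of ERFL near CD79A, where the highest peak of a library had a fold from 33.6 to 169. CD79A itself, which lies between RPS19 and ARHGEF1, had no H3K4me3 peak in its body.

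**Figure D1:**
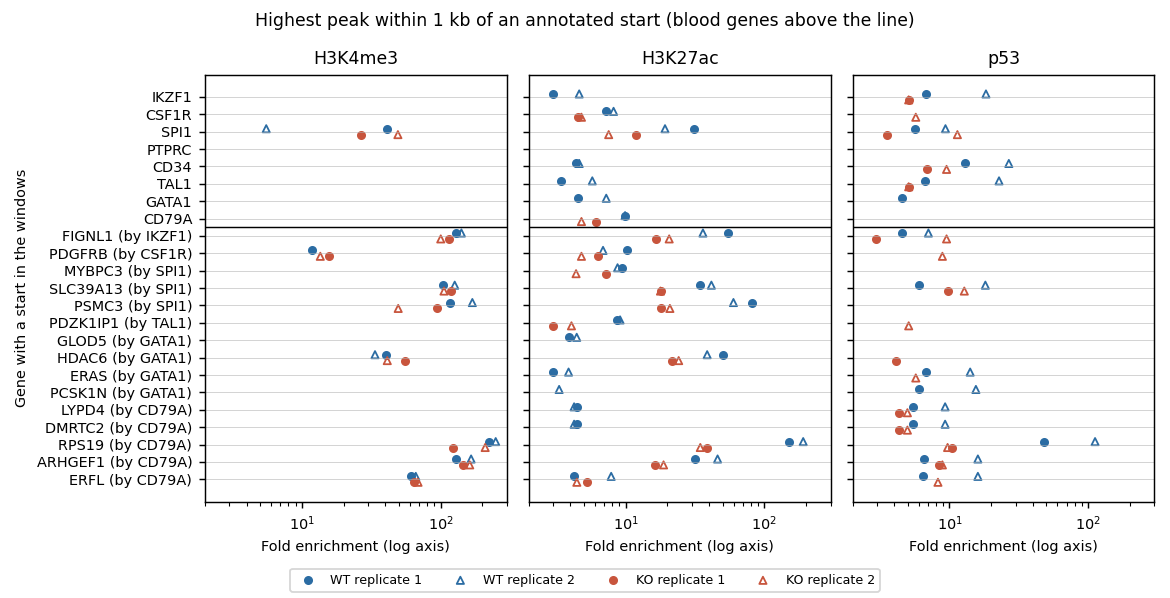
Highest fold enrichment of a peak within 1 kb of an annotated start (horizontal log axis) for H3K4me3, H3K27ac and p53, in WT (blue) and KO (red) libraries, with replicate 1 as filled circles and replicate 2 as open triangles. Blood genes are above the line and neighbours with a peak below it; a missing point means no peak was called, and SPI1 is shown with both gene ends. H3K4me3 is missing at 7 of the 8 blood genes while it is 123 to 249.4 at RPS19.

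Another 5 H3K4me3 regions called in all 4 libraries lay away from every protein-coding start. The strongest was 11119 bp from CD34, on the side of its 3′ end (chromosome 1, 207867584 to 207869853), with folds of 142 and 152 in WT and 57.2 and 148 in KO. No RefSeq gene overlaps it, and the nearest annotated start is 40515 bp away. It also carried H3K27ac, p53 and MLL1, and its MLL1 fold was 9.13 in the WT and 58.9 in the KO library. A region near the edge of the GATA1 window (chromosome X, 48736050 to 48738491) likewise overlapped no gene and had folds of 41.9 and 56.1 in WT and 54.7 and 42.4 in KO. In the TAL1 window a region over the long non-coding gene LINC00853 had 32.3 and 18.9 in WT and 43.5 and 16.1 in KO. Another pair lay beside or within PDGFRB in the CSF1R window, with folds from 6.22 to 38.1. The one beside PDGFRB (chromosome 5, 150161291 to 150161829) lay 4949 bp from CDX1, a gene of the colon epithelium list. Folds of WT and KO overlapped at each of these regions except the one within PDGFRB (chromosome 5, 150129478 to 150130394), where WT had 25.4 and 12.2 and KO 27.3 and 38.1.

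H3K4me3 numbers did not move between genotypes beyond the spread. The windows held 20 and 15 peaks in WT and 18 and 16 in KO, so the groups overlapped (log2 KO over WT of -0.03, p = 1 by a two-sided exact permutation test, whose smallest p with 2 libraries against 2 is 0.333). Of the 15 regions called in both WT libraries, 2 were lost, that is called in no KO library, beside 5.35% of all H3K4me3 regions. Neither lost region was at a blood gene. One lay in HMGXB3 in the CSF1R window (5.41 and 8.74 in WT) and the other in ARHGEF1 in the CD79A window (7.11 and 18.3), both low in fold. No region was gained out of 15 called in both KO libraries, beside 2.52% of all. At the 13 retained regions the median log2 ratio of KO to WT fold was 0.06, beside 0.00 over all retained regions.

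**Figure D2:**
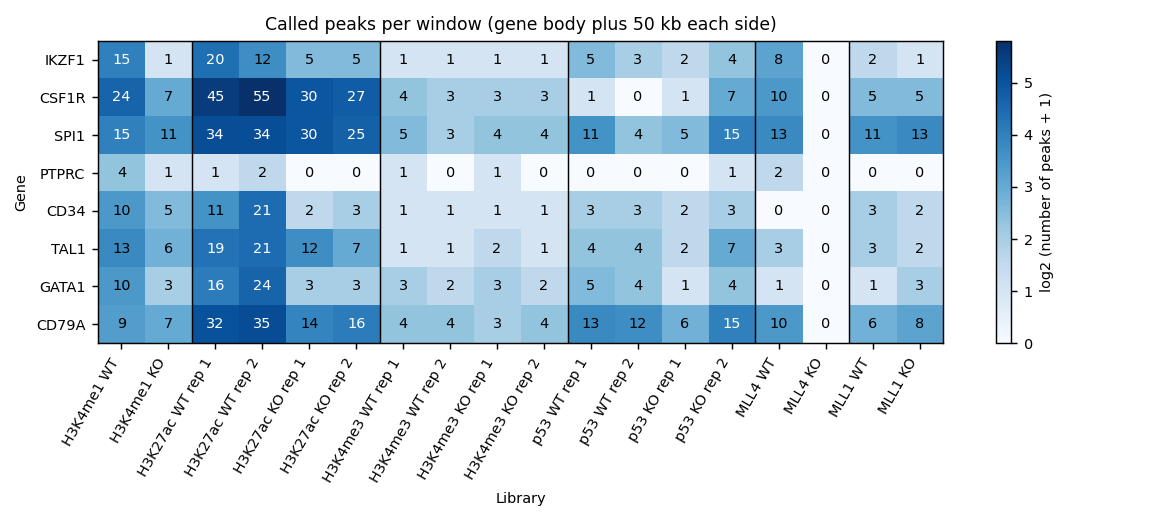
Number of called peaks in each window (gene body plus 50 kb each side) for the 8 genes (rows) and the 18 peak lists (columns), with the colour on a log2 scale. H3K27ac and H3K4me1 counts are lower in KO than in WT columns for each gene, MLL4 counts are 0 in KO, and PTPRC has the fewest peaks.

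H3K27ac, in contrast, was found at the starts of nearly all the blood genes in WT cells. The highest start peak of a library had folds from 3.01 (IKZF1) to 11.7 (SPI1, start end). A peak lay at a start in every WT library for 7 of 8 genes, beside 77.1% of all protein-coding genes, and PTPRC was the exception. In every KO library it did for 3 of 8 (CSF1R, SPI1 and CD79A), beside 63.7%. CD79A had folds of 9.88 and 9.90 in WT and 6.06 and 4.80 in KO. CSF1R had 7.19 and 8.17 in WT and 4.56 and 4.80 in KO. SPI1 had, at its start end, 10.9 and 11.7 in WT against 5.31 and 5.80 in KO. In each of these the 2 WT values lay above the 2 KO values, a comparison of the authors' values with no test.

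At 4 genes a start peak was called in both WT libraries and in neither KO library. GATA1 had folds of 4.51 and 7.24, CD34 4.36 and 4.62, and TAL1 3.44 and 5.74. The TAL1 values come from different peaks, the WT replicate 1 peak near the second start only and that of WT replicate 2 over the upstream start. At the place shared by both, WT replicate 2 had 2.53. IKZF1 had 3.01 and 4.62, but these highest peaks lay at different starts. A region just before its first start (chromosome 7, 50302582 to 50303741) was called in all 4 libraries, with KO peaks of 3.96 and 4.43 beyond 1 kb, so the loss at IKZF1 rests on the distance chosen. For comparison, the median fold over a whole H3K27ac list ran from 4.56 to 4.80, while the peak at RPS19 had 149 and 190 in WT and 38.5 and 34.5 in KO.

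Genes lacking H3K4me3 at any start offer the nearest like for like. There were 7231 such protein-coding genes, 7 of them among the 8. H3K27ac was at a start in every WT library for 6 of the 7, and for 41.4% of the 7231. It was in every KO library for 2 of the 7 and for 10.7% of the 7231. Of those with H3K27ac in every WT library, 4 of 6 blood genes and 52.2% of the 2993 genes had no start peak in either KO library. H3K27ac without H3K4me3, absent at the start in KO, was thus found at 1561 genes of this kind, these 4 included.

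Over the whole windows, H3K27ac peaks were fewer in KO. The libraries held 178 and 204 peaks in WT (191 ± 18.4, SD, n = 2) and 96 and 86 in KO (91.0 ± 7.07, SD, n = 2). The groups did not overlap, and the log2 ratio was -1.07 (p = 0.333 by the exact permutation test, the smallest possible). The whole lists fell by 1.39 on the same scale, so that per 10000 peaks of a list the windows held 12.8 and 10.3 in WT and 14.8 and 13.9 in KO, a log2 ratio of 0.32. Of 130 regions called in both WT libraries, 68 were lost (52.3%, 95% Wilson interval 43.8 to 60.7, which covers counting error only), beside 55.2% of all H3K27ac regions. None was gained out of 45, beside 3.34%. With each list cut to the length of the shortest by −log10 q-value, the lost share was 17% (9 of 53), beside 21.9% over all regions, and 2 of 45 were gained, beside 8.86%. The share lost thus moved with list length in the windows and in the whole genome alike.

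By place, 28 of 40 regions that met the gene bodies of the blood genes were lost (70.0%, 54.6 to 81.9), beside 52.4% of the regions that met any protein-coding gene body. Neighbouring regions are not independent and the difference was not tested. At protein-coding starts in the windows 8 of 24 were lost (33.3%, 17.97 to 53.29, beside 18.2% of all). Away from them 60 of 106 were lost (56.6%, 47.1 to 65.6, beside 62.1%). At each of these places the share over all regions lay within the interval of the windows. Counting gene body and own starts, CSF1R, the macrophage receptor, had the most, with 12 lost and 4 retained, and IKZF1 followed with 5 lost and 1 retained. In TAL1, 4 were lost and none retained, in CD34 3 and none, and in GATA1 2 and none. SPI1 had 1 lost and 3 retained. The single region of CD79A was retained and the single region of PTPRC, with a highest WT fold of 4.51, was lost. At the starts of neighbours, 4 regions were lost and 10 retained. At retained regions in the windows the median log2 ratio of KO to WT fold was -0.76, with 40 of 44 lower in KO, beside -0.81 over all retained regions.

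**Figure D3:**
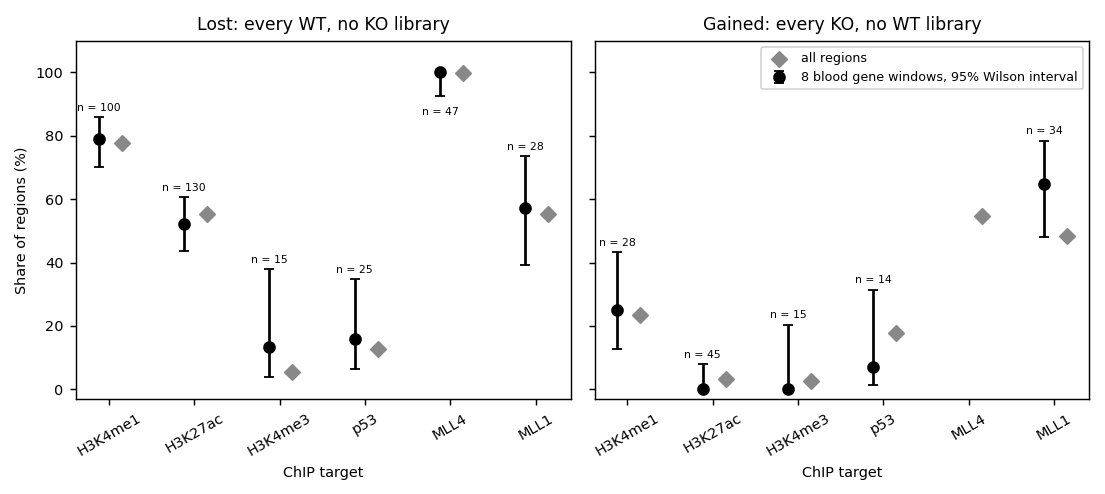
Share of regions lost (left, out of regions called in every WT library) and gained (right, out of regions called in every KO library) for 6 targets, in the windows of the 8 genes (black points with 95% Wilson intervals and number of regions) and over all regions (grey diamonds). For each target with a value, the share over all regions lies within the interval of the windows.

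H3K4me1, from 1 library per genotype, also had fewer peaks in KO. A peak lay at a start, or gene end, for 4 of 8 genes in WT (CSF1R, SPI1, GATA1 and CD79A), beside 71.9% of all protein-coding genes, and for 2 of 8 in KO (SPI1 and TAL1), beside 57.8%. The windows held 100 peaks in WT and 41 in KO, a log2 ratio of -1.29 where the whole lists had -1.52. Of 100 WT regions 79 were lost (79.0%, 70.0 to 85.8), beside 77.7% of all. Away from protein-coding starts 74 of 82 were lost (90.2%, beside 86.4%), and at starts 5 of 18 (27.8%, beside 24.1%). In lists of equal length 22 of 41 were lost (53.7%, beside 54.5%). Of 25 regions that met the gene bodies of the blood genes 21 were lost (84.0%, 65.3 to 93.6). The share over regions that met any protein-coding gene body was 74.7%, within that interval. Among them, all 6 regions in the body of IKZF1 and all 8 in that of CSF1R were lost, the latter with WT folds from 2.45 to 7.51. SPI1 kept a wide region that reached to its start end in WT (chromosome 11, 47373537 to 47378437), at 10.0 in WT and 3.60 in KO. The KO peak in it lay 3.59 to 4.83 kb inside the gene, so no KO peak was within 1 kb of the start end. SPI1 counts among the KO genes above through a peak of 3.99 at its lower-numbered end. A 22686 bp region running from CD79A into ARHGEF1 was also kept, at 6.56 in WT and 7.34 in KO, but no KO peak lay within 1 kb of the CD79A start.

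In KO, 7 of 28 H3K4me1 regions were gained (25%, beside 23.6%). One stood out in fold. At the upstream start of TAL1 (chromosome 1, 47232326 to 47232626) a peak of 301 bp had a fold of 12.6 in KO and no counterpart in WT, and it ranked 58 of the 43636 peaks of its list. It covers the whole TAL1 sequence printed above. Within 1 kb of that start no H3K4me3 library and no KO H3K27ac library had a peak, and p53 had one in KO replicate 2. The other gained regions had folds from 2.97 to 4.70. With 1 library per genotype, this TAL1 peak has no replicate check.

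**Figure D4:**
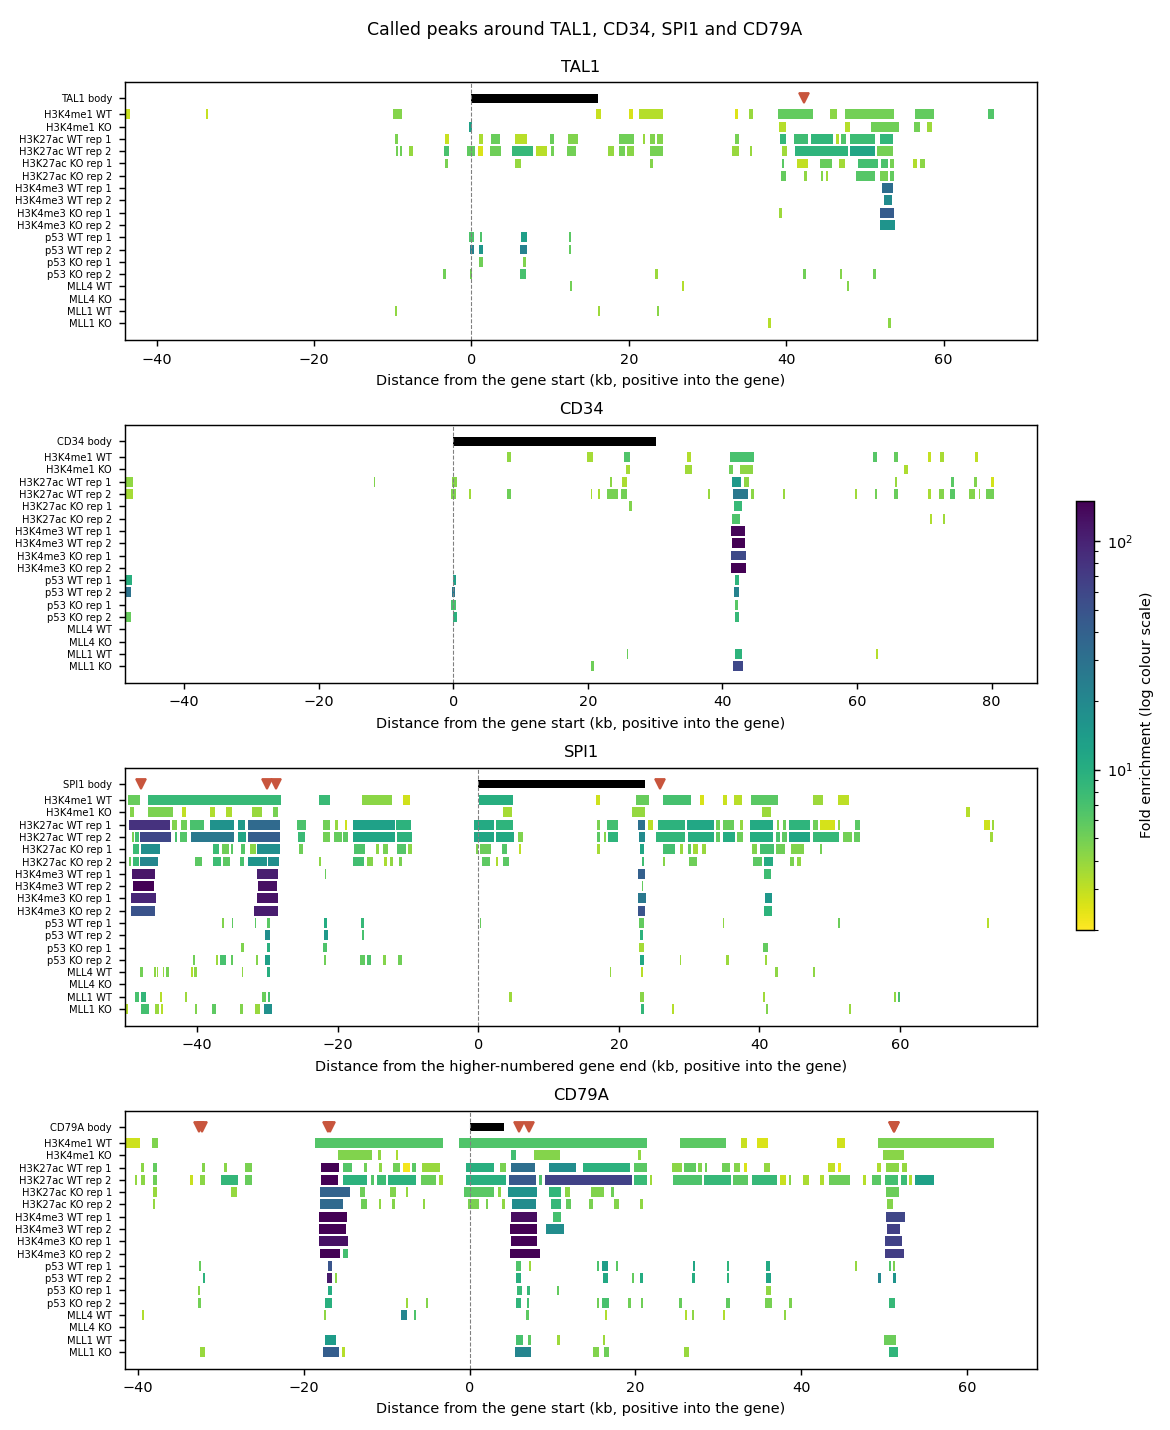
Called peaks around TAL1, CD34, SPI1 and CD79A in the 18 lists (rows), by distance in kb from the annotated start (for SPI1 from the higher-numbered gene end), with colour for fold enrichment on a log scale. Black bars are the gene bodies and red triangles are annotated starts (or ends, where strand is unknown) of neighbouring protein-coding genes. H3K4me3 lies at neighbours, in flanks and at the 3′ end of SPI1, and p53 peaks lie at the starts of TAL1 and CD34.

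MLL4 was called at 47 places in the WT windows and at none in KO. With a limit of 3 counts for a count of 0, MLL4 peaks were at least 15.7-fold lower in KO. All 47 regions were lost, beside 99.8% of all MLL4 regions. The window of KMT2D, the gene knocked out, held 12 MLL4 peaks in WT and 0 in KO, which checks the antibody signal and not the deletion itself. The windows of 7 of the 8 genes held MLL4 peaks, from 1 (GATA1) to 13 (SPI1), and CD34 had none. The peaks were small, with a median fold of 4.17, equal to that of the whole list. Of the 47, 29 (61.7%) met an H3K4me1 region of WT and 35 (74.5%) a region of H3K27ac found in each WT library, beside 37.6% and 47.6% over all MLL4 regions. The windows with the most MLL4 peaks were those of SPI1 (13), CSF1R (10) and CD79A (10). In WT, H3K27ac peaks covered 34.2% to 56.3% of these windows, which also hold neighbours. The difference from all MLL4 regions was not tested and rests on 1 MLL4 library.

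The strongest MLL4 peaks did not lie at blood gene starts. The highest, at 21.0, was over RPS19 and MIR6797 in the CD79A window (chromosome 19, 41869028 to 41869755). The next, at 14.6, was in the body of CSF1R over the pseudogene RPL7P1 (chromosome 5, 150094536 to 150094850). The third, at 10.0, covered the start of SLC39A13. At blood gene starts there was 1 peak, at CSF1R (3.33), besides 1 at the far end of SPI1 (3.16), so 2 of 8 genes, beside 38.8% of all protein-coding genes, and 0 of 8 in KO, beside 0.0150%.

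MLL1, the related methyltransferase encoded by KMT2A, was not found at the transcription starts of the blood genes. It was at none of them in WT or KO other than the lower-numbered end of SPI1 (4.32 in WT and 8.61 in KO), beside 58.9% of all protein-coding genes in WT and 63.3% in KO. The windows held 31 peaks in WT and 34 in KO. Of 28 WT regions 16 were lost (57.1%, beside 55.4%) and of 34 KO regions 22 were gained (64.7%, beside 48.3%, within the interval of 47.9 to 78.5). At 11 of the 12 retained regions the fold was higher in KO. The fold at FIGNL1 was 6.45 in WT and 22 in KO, at RPS19 14 and 42.0, and at ARHGEF1 7.01 and 21.1. PSMC3, at 8.60 and 7.25, was the exception. The median log2 ratio at retained regions was 0.88, beside 1.44 over all, with 1 library per genotype and no test.

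p53, the tumour suppressor transcription factor that the study set beside MLL4, was found in every WT library at a start of 3 of the 7 blood genes that lack H3K4me3, beside 29.9% of the 7231 such genes, and in every KO library at 3 of the 7, beside 17.1%. Counting gene ends for SPI1, a start peak was called in every WT library for 4 of 8 genes, beside 49.7% of all protein-coding genes, and in every KO library for 4 of 8, beside 56.0%. CD34 had folds of 12.8 and 26.8 in WT and 6.87 and 9.52 in KO. IKZF1 had 6.80 and 18.3 in WT and 5.11 and 5.08 in KO. Both KO values were below both WT values in each. The KO peaks of IKZF1 do not overlap, and that of KO replicate 2 lies before the printed bases and reaches only just within 1 kb of the start, so the call in both KO libraries rests on the distance chosen. TAL1 had 6.68 and 22.8 in WT and 5.09 and 5.08 in KO, but its KO peaks lay in 2 regions, each called in 1 KO library.

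WT replicate 2 was the highest in each of these. That library had a median fold of 12 over its whole list against 7.55 in WT replicate 1 and 5.62 and 5.08 in KO, so the folds of the libraries are not on a common scale. GATA1 had a start peak in WT replicate 1 only (4.53) and CSF1R in KO replicate 2 only (5.71). PTPRC had no peak of any of the 6 targets at its start. The strongest p53 peak of the windows in WT belonged to RPS19, with 48.3 and 112 in WT and 10.4 and 9.69 in KO.

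Starts with p53 were the 4 with the most CpGs of the 11 annotated. This was looked at after the values were seen. The 2 starts of TAL1 are not separate cases, since the stretches within 1 kb of them overlap. The WT p53 peak over the upstream start was counted for both, and no p53 peak met the 250 bases before the second start. Among 22130 annotated starts of protein-coding genes, a p53 peak was within 1 kb in both WT libraries at 7.72% of those with 0 to 5 CpGs in the 250 bases before the start, at 37.0% with 6 to 16, at 57.0% with 17 to 25 and at 85.8% with 26 or more. Where no H3K4me3 library had a peak, at 8312 starts, the shares were 3.99%, 34.1%, 84.4% and 94.4%. In both KO libraries they were 2.48%, 18.3%, 46.4% and 49.1%. The starts of IKZF1 with 28, TAL1 with 24 and 14 and CD34 with 14 CpGs had p53 in both WT libraries. The other 7 starts in the table had 0 to 6 CpGs, and none of them had it in both WT libraries. For IKZF1 and the upstream TAL1 start, p53 in WT was thus the common state of starts with as many CpGs and no H3K4me3, while in the range that holds CD34 and the second TAL1 start the share was 34.1%.

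**Figure D5:**
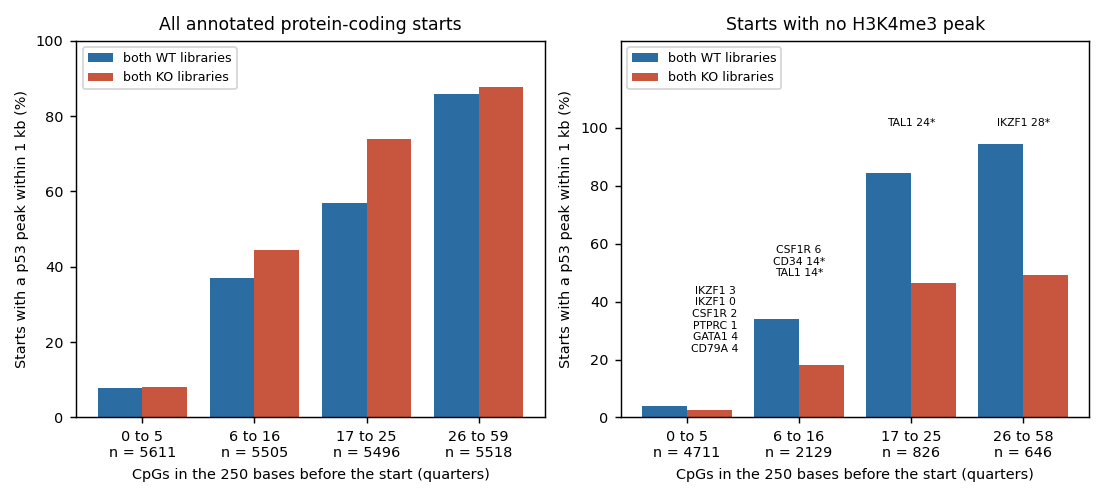
Share of annotated protein-coding starts with a p53 peak within 1 kb in both WT (blue) or both KO (red) libraries, by number of CpGs in the 250 bases before the start, for all starts (left) and for starts with no H3K4me3 peak in any of 4 libraries (right). Gene names with their CpG numbers mark where the 11 starts of 7 blood genes fall, with an asterisk where p53 was called in both WT libraries. The share rises with CpG number, to 94.4% at the right.

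The p53 half-site, the 10-base motif of which p53 response elements hold a pair, was searched by its consensus on both strands in the same 250 bases. It was in none of the sequences of IKZF1, TAL1 and CD34 with p53, and in 5.57% of all 35114 entries. The second CSF1R entry held 1 match and had no p53 peak in either WT library. A match or its absence here describes these 250 bases only.

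Over the windows p53 peaks numbered 42 and 30 in the WT libraries against 19 and 56 in KO, with KO replicates on both sides of WT (log2 ratio -0.12, p = 1 by the exact permutation test). The KO replicates differed as much in the whole lists, with 24972 and 62248 peaks. Of 25 regions called in both WT libraries 4 were lost (16%, 6.40 to 34.7), beside 12.7% of all. Without KO replicate 2, which had the longer list, 13 of 25 were lost (52.0%). The share over all regions was not computed for that setting, so this value cannot be set beside the 12.7%. In lists of equal length 6 of 20 were lost (30%), beside 22.2% of all. In KO 1 of 14 was gained, beside 17.6%. Inside the body of TAL1 a p53 region (chromosome 1, 47225261 to 47226192) was retained, at 13.4 and 22.1 in WT and 4.6 and 6.98 in KO, and a weaker one was lost (6.04 and 5.64 in WT). At the 11 retained regions the median log2 ratio of KO to WT fold was -1.11, with 9 lower in KO, beside -0.76 over all.

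PTPRC was the emptiest of the windows. Over 219 kb it had 4 H3K4me1 peaks in WT and 1 in KO, 1 and 2 H3K27ac peaks in WT and none in KO, and 2 MLL4 peaks in WT. An H3K4me3 peak within its body (chromosome 1, 198699311 to 198699972) was called in replicate 1 of each genotype (4.08 in WT and 6.90 in KO) and in neither replicate 2. CSF1R was at the other end, with 45 and 55 H3K27ac peaks in WT and 30 and 27 in KO. Its window holds PDGFRB and HMGXB3, and 22 of its 47 H3K27ac regions lay in the flanks. It also overlaps the window of CDX1, a gene of the colon epithelium list.

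The genes whose peak numbers over the 18 lists were most like the mean of the 8 were TIMM10B, ABRAXAS2 and PARL, with Euclidean distances of 0.81, 0.91 and 0.94 in log2(peaks + 1), against a median of 4.23 over 19930 genes. The blood genes themselves lay at 1.46 (TAL1) to 8.04 (PTPRC), each farther from their own mean than these 3. Since the 3 were picked as the nearest, this order was nearly fixed by the choice. CD79A (4.41), CSF1R (4.66), SPI1 (5.12) and PTPRC lay beyond the median over all genes, and TAL1, GATA1, IKZF1 and CD34 below it.

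The windows of 42 further blood genes were read in the same way. In them 293 of 663 H3K27ac regions were lost (44.2%, 40.5 to 48, beside 55.2% of all) and 411 of 587 H3K4me1 regions (70.0%, 66.2 to 73.6, beside 77.7%). In the windows of the 18 colon epithelium genes 187 of 383 H3K27ac regions (48.8%, 43.9 to 53.8) and 246 of 319 H3K4me1 regions (77.1%, 72.2 to 81.4) were lost. The 8 genes of muscle, liver and neurons had 33 of 76 H3K27ac regions lost (43.4%, 32.9 to 54.6). For H3K4me1 they had 62 of 79 (78.5%, 68.2 to 86.1). An H3K27ac share below that of all regions was thus found in each list and was not particular to blood genes. Counts were added over the genes of a list, so a region in overlapping windows was counted for each gene. The intervals do not allow for this. Neighbouring regions are not independent, and the differences between the lists were not tested. PAX5, the B-cell factor, had the most lost H3K27ac regions of the further blood genes, 21 of 34, followed by CD22, ELANE, GFI1B, TCF7 and KLF1 with 14 each. PAX5 also had the most lost H3K4me1 regions, 30 of 38, followed by RUNX1 with 22 of 30, GATA2 with 18 of 20 and CSF3R with 17 of 20. Gained regions numbered 4 of 256 for H3K27ac (1.56%, beside 3.34% of all), 2 of them at RUNX1, and 34 of 210 for H3K4me1 (16.2%, beside 23.6%), with 3 at each of ERG, ITGAM, RUNX1, LCK and TCF7. TCF7, KLF1 and LCK, and RUNX1 for H3K4me1, were added after their values were seen, since they tie with the others. Among the epithelial genes EPHB2, a receptor of the crypt base, had 61 of 92 H3K27ac regions lost, and AXIN2, HNF4A and CDX1 had 18 of 28, 17 of 30 and 14 of 41.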

How the data were processed

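The 18 deposited peak lists of chromatin immunoprecipitation libraries from WT and MLL4-KO HCT116 cells were used, and the 2 inputs were not analysed here. Peaks were called with MACS2 2.1.1 on hg38, per the submitters' processing notes, separately for each library with the input of the same genotype as control, per the peak names in the deposited files. The labels and files name no aligner or filter on reads and give no depth. The authors' lists give each peak a fold enrichment (a ratio of signal over local background), a −log10 p-value and −log10 q-value, and a score derived from the q-value. The narrow lists also hold the summit position. Folds and q-values were used only to describe, rank or filter peaks.

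Overlapping peaks of a target (1 bp or more) on chromosomes 1 to 22 and X formed a region. A region was lost when each WT library and no KO library had it, gained in the reverse case and retained when called in all. Lists held 278 (MLL4, KO) to 198757 peaks (H3K27ac, WT replicate 2), so that peak presence depends on list length. Peak numbers were compared on the log2 scale by an exact permutation test (two-sided), and shares have 95% Wilson intervals. Named genes were the 8 genes, the highest region per gene and target, neighbours with a peak at a start, the genes with the most lost or gained regions in each list, and the 3 genes most alike in peak number. The genes and gene lists were chosen with earlier results of these data known. Alternatives were gene bodies alone, flanks of 100 kb, a −log10 q-value of at least 5, lists of equal length, an overlap of at least 50% of the WT peak, peak number per 10000 peaks, a replicate block and leaving out each replicate. The merging was tested on simulated lists. Python 3.11.15, numpy 2.4.6, pandas 2.3.3 and statsmodels 0.14.6 were used.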

Additional observations from a re-analysis of the deposited data

How the results depend on the processing

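Of 80 values under the alternatives, 55 kept within the main interval or direction, 16 moved and 9 changed sign. For peak numbers of H3K27ac, H3K4me3 and p53, any value that did not change sign counted as kept, whatever its size. The 55 are thus no measure of how far those values shifted. Per 10000 peaks of a list the log2 ratio of peak number turned to 0.24 for H3K4me1, 0.32 for H3K27ac and 0.035 for H3K4me3. In gene bodies alone it was -2.32 for H3K4me1, -1.92 for H3K27ac, -2.00 as a bound for MLL4 and -0.58 for MLL1, and with flanks of 100 kb it was 0.12 for p53. With a −log10 q-value of at least 5 it was -3.55 for H3K4me1, -0.93 for p53 and -1.22 as a bound for MLL4. The lost share was 70.0% for H3K27ac and 0 for H3K4me3 (of 1 region) in gene bodies alone. With the stricter q-value it was 93.6% for H3K4me1, 34.8% for p53 and 20% for MLL1. In lists of equal length it was 53.7% for H3K4me1, 17% for H3K27ac, 7.14% for H3K4me3 and 30% for p53. With an overlap of 50% of the WT peak it was 93.0% for H3K4me1, 67.7% for H3K27ac and 28% for p53. The overlap rule can by its definition only keep or raise the number lost. The cause of the other changes was not tested. Leaving out 1 replicate gave log2 ratios from -1.17 to -0.97 for H3K27ac, -0.24 to 0.18 for H3K4me3 and -0.90 to 0.66 for p53, and lost shares from 56.2% to 64.8%, 13.3% to 15.8% and 20% to 52%. Since a lost region is one that no KO library has, leaving out a KO library can only keep or raise the number lost. Shares over all regions were not computed with a replicate left out. A lone library left in a genotype has no test. With the replicate number as a block, the ratios stayed at -1.07, -0.03 and -0.12, with exact sign-flip p of 0.5, 1 and 1 (smallest 0.5). Same-numbered libraries share only a number: over 19974 gene windows, deviations of equal numbers correlated at 0.03 for H3K27ac, 0.10 for H3K4me3 and -0.10 for p53. MLL4 per 10000 peaks could not be given, since KO had 0 peaks.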
